A study of Rattus norvegicus with 6 samples.

Results

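The 10 genes described here belong to cellular detoxification under the transcription factors NRF2 and AhR. They are the regulators Nfe2l2, Keap1 and Ahr and the target genes Nqo1, Cyp1b1, Aldh3a1, Gpx3, Gclm, Gclc and Txnrd1. Members were found by gene symbol in the count tables, and all 10 were present, each once, among 12121 listed genes. They were named with fold changes of these same libraries already known, so their values below are a description without a test. RNA-seq compared C6 cells, an established line from a chemically induced rat glioma, with the same line made to overexpress Aqp1 (C6-AQP1), in 3 libraries a group. AQP1, a water channel, was introduced, per the methods, with a pCDH vector that drives it from a CMV promoter and also carries copGFP and puromycin resistance. The labels give the control genotype only as control. For other assays the study used a control line named for the vector, C6-Pcdh, but whether the sequenced control is that line is not stated, so whether the vector differs between the groups is not known here. The number of clones behind the C6-AQP1 line and whether separate cultures gave the 3 libraries of each group are not stated, so each p-value reflects variation among the sequenced libraries and this variation may be technical. Aqp1 itself had 349 ± 2.48 CPM in C6 control cells and 1058 ± 5.81 CPM in C6-AQP1 cells (SD, n = 3), with 3 of 3 libraries higher and log2 fold change 1.60.

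NRF2, encoded by Nfe2l2, is a transcription factor that KEAP1 holds in the cytoplasm and hands to a CUL3 ubiquitin ligase for degradation. Electrophiles and oxidants modify KEAP1, after which NRF2 accumulates, pairs with a small MAF protein and binds the antioxidant response element of genes for glutathione synthesis, quinone reduction and thioredoxin reduction. AhR is a ligand-activated factor that waits in a complex with HSP90 and p23, and after binding planar aromatic ligands it pairs with ARNT on its own DNA element. Its best known targets are the CYP1 family of cytochromes P450, and Nqo1 and Aldh3a1 respond to both factors. In the brain, astrocytes are known for a strong NRF2 response and for supplying neurons with glutathione precursors. All of these factors are controlled largely at the protein level, so the RNA of a regulator is not a measure of its activity.

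The promoters of the members are shown because the pathways act through short DNA elements. RefSeq promoter windows of the rat assembly GRCr8, with 250 bases before and 50 bases after a gene's start, matched 9 of the 10 members by symbol (Ahr, Cyp1b1, Gclc, Gclm, Gpx3, Keap1, Nfe2l2, Nqo1 and Txnrd1, the latter with more than 1 window). The antioxidant response element core was searched as TGACNNNGC and the AhR element as TNGCGTG, each on both strands. The former was found in windows of 3 members and in 12.1% of all 33469 windows, and the latter in 1 member and in 4.89% of all windows. TGACNNNGC can overlap the AP-1 site TGANTCA, but none of the matches in the members did. In the sequences below, printed 5′ to 3′ on the strand of the gene and without the bases after the start for the first 3, capitals mark the match.
Cyp1b1, chr6:21094315-21094564, plus strand, AhR element: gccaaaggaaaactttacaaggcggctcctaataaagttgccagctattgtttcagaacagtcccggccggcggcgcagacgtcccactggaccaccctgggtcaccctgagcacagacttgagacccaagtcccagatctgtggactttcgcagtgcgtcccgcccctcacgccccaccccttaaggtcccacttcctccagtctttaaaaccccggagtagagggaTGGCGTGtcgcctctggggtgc
Gclm, chr2:213031885-213032134, plus strand, antioxidant response element core on the opposite strand: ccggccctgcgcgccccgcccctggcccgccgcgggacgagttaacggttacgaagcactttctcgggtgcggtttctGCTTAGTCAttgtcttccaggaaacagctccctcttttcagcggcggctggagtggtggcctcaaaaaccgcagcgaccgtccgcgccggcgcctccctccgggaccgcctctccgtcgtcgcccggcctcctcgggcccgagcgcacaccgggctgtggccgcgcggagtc
Txnrd1, chr7:22755905-22756154, minus strand, antioxidant response element core on the opposite strand: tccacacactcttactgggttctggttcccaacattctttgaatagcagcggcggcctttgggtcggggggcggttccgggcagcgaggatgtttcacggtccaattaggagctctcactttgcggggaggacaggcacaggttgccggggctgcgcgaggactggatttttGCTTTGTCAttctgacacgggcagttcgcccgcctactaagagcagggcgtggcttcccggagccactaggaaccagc
Nfe2l2, chr3:81028950-81028971, minus strand, antioxidant response element core and its flanks: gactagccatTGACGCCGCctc
The match lay 16 bases before the start of Cyp1b1, 164 before that of Gclm and 70 before the start in the printed Txnrd1 window. The other Txnrd1 window held no match to either element, and neither did the windows of Nqo1, Gclc, Gpx3, Keap1 and Ahr. Bases outside the windows were not searched, so elements further from a start would not be seen. In Nfe2l2 the match began 38 bases after the start. These are matches of letters, and binding was not measured here.

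The regulators themselves differed little between the groups compared with the strongest targets. Nfe2l2 (ENSRNOG00000001548), which encodes NRF2, had 175, 174 and 170.1 CPM in C6 control replicates 1, 2 and 3 and 130.0, 125 and 130.1 CPM in C6-AQP1 replicates 1, 2 and 3. CPM here and below are counts scaled to the size of each library with TMM factors, which makes libraries of different composition comparable. Every C6-AQP1 library was below every control library, at 74.1% of the control mean (log2 fold change -0.43, standard error 0.03). Keap1 (ENSRNOG00000020878), the sensor that marks NRF2 for degradation, had 42.6, 43.1 and 43.1 CPM in C6 control replicates 1, 2 and 3 and 37.3, 39.4 and 36.7 CPM in C6-AQP1 replicates 1, 2 and 3. It was also lower in all C6-AQP1 libraries, by the smallest amount of the 10 members (log2 fold change -0.18, standard error 0.04). Within a library, which makes the value independent of scaling, the ratio of Nfe2l2 to Keap1 counts was 4.1, 4.05 and 3.94 in C6 control replicates 1, 2 and 3 and 3.48, 3.17 and 3.55 in C6-AQP1 replicates 1, 2 and 3. The ratio was thus lower in every C6-AQP1 library, at 0.843 times the control mean. Ahr (ENSRNOG00000004342), the aryl hydrocarbon receptor, had 17.7, 16.9 and 17.6 CPM in C6 control replicates 1, 2 and 3 and 22.0, 21.7 and 23.0 CPM in C6-AQP1 replicates 1, 2 and 3. It was 1 of 2 members with a higher level in C6-AQP1 cells (log2 fold change 0.36, standard error 0.06) and no overlap between the groups.

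Among the members, the enzymes that AhR and NRF2 share or that AhR controls were far lower in C6-AQP1 cells. Cyp1b1 (ENSRNOG00000040287), a cytochrome P450 that oxidizes polycyclic hydrocarbons and oestrogens and whose promoter is shown above, had 56.5, 59.8 and 57.6 CPM in C6 control replicates 1, 2 and 3 and 6.09, 5.35 and 5.27 CPM in C6-AQP1 replicates 1, 2 and 3. The groups were far apart compared with their spread, and the C6-AQP1 mean was 10.6-fold lower (log2 fold change -3.41, standard error 0.06). Aldh3a1 (ENSRNOG00000002331), an aldehyde dehydrogenase that removes lipid aldehydes, had 7.09, 5.99 and 6.47 CPM in C6 control replicates 1, 2 and 3 and 0.205, 0.218 and 0.355 CPM in C6-AQP1 replicates 1, 2 and 3. It showed the largest difference of the 10 members, 23.7-fold lower in C6-AQP1 cells (log2 fold change -4.56, standard error 0.20), and ranked 8 among all 12121 genes from the lowest log2 fold change up. Its C6-AQP1 values rest on 4, 9 and 15 counts, so the size of the difference is known only roughly, and without C6-AQP1 replicate 3, the highest of these, the log2 fold change was -4.90. Nqo1 (ENSRNOG00000012772), the quinone reductase used as a standard readout of NRF2, had 744, 739 and 731 CPM in C6 control replicates 1, 2 and 3 and 245, 246 and 252 CPM in C6-AQP1 replicates 1, 2 and 3. Each group kept within a narrow range, and C6-AQP1 cells had 33.6% of the control level (log2 fold change -1.57, standard error 0.02), the most precisely measured of the large differences, from 4791 counts or more in every library.

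The catalytic and the modifier subunit of glutamate-cysteine ligase, the rate-limiting enzyme of glutathione synthesis, differed in opposite directions. Gclc (ENSRNOG00000006302), the catalytic subunit, had 159.7, 157 and 155 CPM in C6 control replicates 1, 2 and 3 and 118, 122 and 122 CPM in C6-AQP1 replicates 1, 2 and 3. All C6-AQP1 libraries were lower (log2 fold change -0.38, standard error 0.03). Gclm (ENSRNOG00000013409), the modifier subunit that raises the activity of the catalytic one and whose promoter is shown above, had 65.8, 64.9 and 65.5 CPM in C6 control replicates 1, 2 and 3 and 78.2, 75.4 and 75.9 CPM in C6-AQP1 replicates 1, 2 and 3. Here all C6-AQP1 libraries were higher, though by a small amount (log2 fold change 0.22, standard error 0.03). The ratio of Gclm to Gclc counts was 0.412, 0.413 and 0.423 in C6 control replicates 1, 2 and 3 and 0.663, 0.617 and 0.625 in C6-AQP1 replicates 1, 2 and 3. In C6-AQP1 cells it was 1.53 times the control mean, and because it is taken within each library, no choice of scaling changes it.

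Both selenoenzymes among the members were lower in C6-AQP1 cells, by very different amounts. Txnrd1 (ENSRNOG00000009088), the cytosolic thioredoxin reductase, had 269, 271 and 274 CPM in C6 control replicates 1, 2 and 3 and 175, 180.3 and 172 CPM in C6-AQP1 replicates 1, 2 and 3. Its log2 fold change was -0.63 (standard error 0.02), and the groups did not overlap. Gpx3 (ENSRNOG00000052564), a secreted glutathione peroxidase, had 5.70, 5.82 and 5.96 CPM in C6 control replicates 1, 2 and 3 and 0.871, 0.412 and 0.426 CPM in C6-AQP1 replicates 1, 2 and 3. The C6-AQP1 level was 11.3-fold lower (log2 fold change -3.50, standard error 0.19) and rested on 17, 17 and 18 counts. C6-AQP1 replicate 1, the shallowest library, stood apart from the other two at about the same number of counts, and without it the log2 fold change was -3.79.

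**Figure D1:**
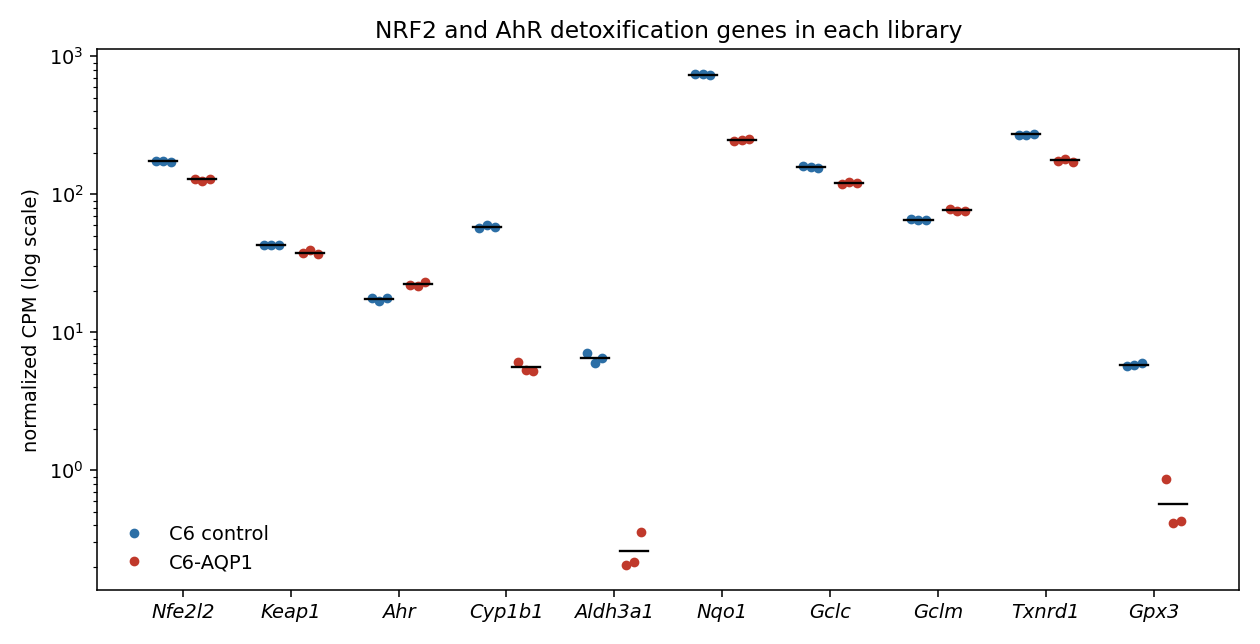
Normalized CPM on a log axis of the 10 members in each library, with points for libraries (blue, C6 control; red, C6-AQP1) and black bars for the mean of 3 libraries. The groups do not overlap for any member, and Cyp1b1, Aldh3a1, Nqo1 and Gpx3 stand lowest in C6-AQP1 cells relative to the controls.

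Counted together, 8 members were lower and 2 (Ahr and Gclm) higher in C6-AQP1 cells. The methods call a gene a DEG when its adjusted p is under 0.05 and it differs by more than 2-fold, and the members that met both were Nqo1, Cyp1b1, Aldh3a1 and Gpx3, and all 4 were lower. Of all 12121 genes, 14.1% were DEGs, 4.35% with a lower and 9.74% with a higher level in C6-AQP1 cells. All 10 had an adjusted p under 0.05, as did 81.5% of all genes, and the groups did not overlap for any of the 10, as was the case for 82.5% of all genes, 41.3% with a higher and 41.3% with a lower level. Since the members were picked from this comparison, nothing is read from these counts. All members had passed the filter of the authors on low values, a mean TPM above 1 in a group. Aldh3a1 and Gpx3, at under 1 CPM in every C6-AQP1 library, may have passed it through the control group alone. Genes of these pathways outside the 10 members, taken from lists of known functions, were therefore set beside them with the edgeR test across all genes. Below, rose and fell are used of genes that passed edgeR's quasi-likelihood test with Benjamini-Hochberg adjustment at 0.05, a bar that 40.8% of all genes passed upwards and 40.7% downwards, with a median log2 fold change of all genes of 0.00.

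Among the partners and control genes of NRF2, 8 of 17 rose, 8 fell and 1 did not pass, with a median log2 fold change of 0.06, which ran from 0.02 (without C6-AQP1 replicate 2 or 3) to 0.11 (without C6-AQP1 replicate 1, or with library totals alone). Of the small MAF proteins that pair with NRF2, Mafg and Mafk rose, from 24.7 ± 0.599 to 36.3 ± 0.807 CPM and from 25.9 ± 0.786 to 37.7 ± 1.39 CPM (SD, n = 3; log2 fold changes 0.56 and 0.53, adjusted p = 1.3e-10 and 3.9e-10 by edgeR). Maff, the third of them, had a log2 fold change of 0.06 (adjusted p = 0.368 by edgeR), although without C6-AQP1 replicate 1 it passed with 0.11 (adjusted p = 0.032). Bach2, a repressor that competes for the same DNA element, rose 5.11-fold, from 0.867 ± 0.222 to 4.23 ± 0.180 CPM (adjusted p = 5.9e-11 by edgeR), while its relative Bach1, the repressor of haem oxygenase, rose by a log2 fold change of only 0.17, and leaving out C6-AQP1 replicate 2 took this to 0.11, which did not pass (adjusted p = 0.081 by edgeR). The NRF2-related factors Nfe2l1 and Nfe2l3 rose, with log2 fold changes of 0.14 and 1.21, the latter from under 1 CPM in each control library. Bach2 and Nfe2l3, with control means under 1 CPM, may have passed the filter of the authors through the C6-AQP1 group alone.

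The ligase that degrades NRF2 showed lower RNA levels of its subunits. Cul3, the scaffold that binds KEAP1, fell from 222 ± 3.40 to 162 ± 4.02 CPM, and Rbx1, its RING subunit, fell from 13.2 ± 0.736 to 6.08 ± 0.547 CPM (SD, n = 3; log2 fold changes -0.45 and -1.13, adjusted p = 1.5e-13 and 4.2e-11 by edgeR). Genes for proteins that bind KEAP1 in competition with NRF2 or as clients also fell, namely Dpp3, Pgam5 and Sqstm1, with log2 fold changes of -0.45, -0.44 and -0.09. That of Sqstm1 was small and did not pass when libraries were scaled by their totals alone (-0.04, adjusted p = 0.064 by edgeR). Park7, a redox chaperone reported to stabilize NRF2, fell, with -0.21. Palb2, another KEAP1 ligand, had -0.24 (adjusted p = 0.0124 by edgeR), and it no longer passed when C6-AQP1 replicate 2 (-0.20, adjusted p = 0.082) or C6 control replicate 3 (-0.16, adjusted p = 0.13) was left out. In the second route of NRF2 degradation, the kinase gene Gsk3b rose and the ligase gene Btrc fell, with log2 fold changes of 0.37 and -0.16. Amer1, a KEAP1 interactor better known from WNT signalling, rose with 0.78.

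AhR partners and further targets counted 2 rises and 6 falls among 8 genes, with a median log2 fold change of -0.49. Arnt, the partner of AhR on DNA, rose from 27.5 ± 0.839 to 47.0 ± 2.08 CPM (SD, n = 3; log2 fold change 0.78, adjusted p = 3.4e-13 by edgeR), in the same direction as Ahr. Its brain paralogue Arnt2 fell, with -0.42. Of the complex that holds AhR in the cytoplasm, the genes of the HSP90 chaperones, Hsp90aa1 and Hsp90ab1, fell at log2 fold changes of -0.83 and -0.45, and Ptges3, which encodes p23, fell with -0.74. Cyp1a1, the classical AhR target, fell from 3.25 ± 0.403 to 1.64 ± 0.141 CPM (SD, n = 3; log2 fold change -0.99, adjusted p = 8.9e-06 by edgeR), in the direction of Cyp1b1, Aldh3a1 and Nqo1 but by less. Tiparp, an AhR target that feeds back on the receptor, went the other way, from 26.7 ± 1.43 to 37.7 ± 1.67 CPM (log2 fold change 0.50, adjusted p = 3.6e-09 by edgeR). RNA of the known AhR targets therefore did not move in a single direction.

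**Figure D2:**
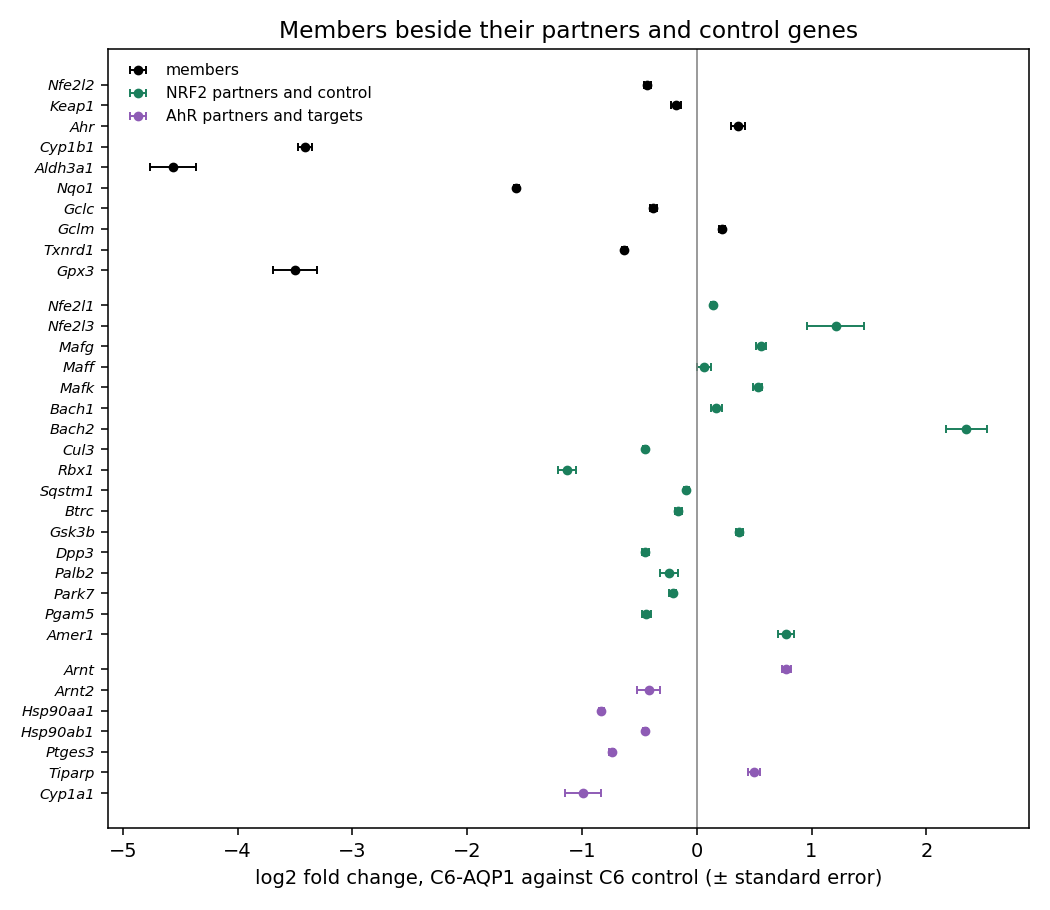
Log2 fold changes with standard errors between C6-AQP1 and C6 control for the 10 members (black), the NRF2 partners and control genes (green) and the AhR partners and targets (purple), for the genes reported here. Members reach -4.56, whereas the partner genes lie between -1.13 and 2.35.

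Genes around glutathione mostly fell. Of 19 genes of its synthesis, turnover and use in reduction, 15 fell, 3 rose and 1 did not pass, with a median log2 fold change of -0.51, and 2 were DEGs with a lower and 1 a DEG with a higher level. Gss, the synthetase that completes glutathione after the ligase of Gclc and Gclm, fell from 57.9 ± 0.525 to 25.3 ± 0.450 CPM (SD, n = 3; log2 fold change -1.19, adjusted p = 2.2e-17 by edgeR). The peroxidase genes Gpx1 and Gpx8 fell (adjusted p = 9.7e-19 and 7.4e-15 by edgeR), with log2 fold changes of -1.45 and -0.92, in the direction of Gpx3. The genes that rose were Slc7a11, the cystine carrier and a known NRF2 target, with 0.38, Chac1, which breaks glutathione down, with 0.37, and Oplah, which returns 5-oxoproline to glutamate, with 1.45 (adjusted p = 9.2e-17 by edgeR). Gclm and Slc7a11, both NRF2 targets, were thus higher while Gclc and Gss were lower in the same libraries.

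Glutathione transferases were mixed. Among 18, 10 rose, 5 fell and 3 did not pass, with a median log2 fold change of 0.18, and 4 were DEGs with a higher and 2 with a lower level. Gsta4, which conjugates the lipid aldehyde 4-hydroxynonenal, rose from 11.3 ± 0.327 to 24.3 ± 2.32 CPM (SD, n = 3; adjusted p = 2.9e-12 by edgeR), and Gstt1 and Gstm7 had log2 fold changes of 1.35 and 1.24. Mgst2, a microsomal transferase, fell from 4.41 ± 0.0696 to 1.26 ± 0.191 CPM (adjusted p = 4.8e-10 by edgeR), and Gstp1 and Gstcd had log2 fold changes of -0.39 and -0.39. RSEM divides reads that fit several genes, so transferases with close paralogues are less certain than others.

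In the thioredoxin group, 11 of 17 genes fell, 5 rose and 1 did not pass, with a median log2 fold change of -0.33. Prdx5, a peroxiredoxin of mitochondria and peroxisomes, fell from 323 ± 6.48 to 127 ± 3.44 CPM (SD, n = 3; log2 fold change -1.34, adjusted p = 1.4e-21 by edgeR). Txn1, the substrate of Txnrd1, had 23.9, 22.6 and 22.5 CPM in C6 control replicates 1, 2 and 3 and 14.0, 7.92 and 7.87 CPM in C6-AQP1 replicates 1, 2 and 3, a log2 fold change of -1.29 (adjusted p = 0.00639 by edgeR). C6-AQP1 replicate 1 lay between the other C6-AQP1 libraries and the controls, and without it the log2 fold change was -1.53. The thioredoxin reductases differed, since the mitochondrial Txnrd2 fell like Txnrd1, with -0.70, and Txnrd3 rose, with 0.89. Txnip, which binds and blocks thioredoxin, rose 4.59-fold, from 62.4 ± 0.390 to 286 ± 0.926 CPM (adjusted p = 3.2e-25 by edgeR). Srxn1, sulfiredoxin and a known NRF2 target, rose from 2.54 ± 0.445 to 5.15 ± 0.781 CPM (log2 fold change 1.00, adjusted p = 3.8e-06 by edgeR), opposite to Nqo1 and Txnrd1.

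Quinone, haem, aldo-keto and export genes moved in both directions too. Of 20, 11 rose, 7 fell and 2 did not pass, with a median log2 fold change of 0.09, and the 4 DEGs were all higher in C6-AQP1 cells. Aox1, aldehyde oxidase, rose 4.81-fold, from 38.9 ± 0.439 to 187 ± 3.76 CPM (SD, n = 3; adjusted p = 3.3e-24 by edgeR), and Osgin1, an oxidative stress gene under NRF2, 4.71-fold, from 2.58 ± 0.313 to 11.98 ± 1.07 CPM (adjusted p = 4.7e-14 by edgeR). Abcc5, an exporter of organic anions, had a log2 fold change of 1.72. The other DEG, Hmox1, the haem oxygenase controlled by NRF2 and BACH1, is named after its values were seen and had 105, 107 and 107 CPM in C6 control replicates 1, 2 and 3 and 300.1, 309 and 319.7 CPM in C6-AQP1 replicates 1, 2 and 3, a log2 fold change of 1.54 (adjusted p = 2.3e-22 by edgeR). Cbr3, a carbonyl reductase, Ugdh, which makes UDP-glucuronate, and the aldo-keto reductase Akr7a2 fell (adjusted p = 2.1e-14, 1.8e-18 and 1.4e-07 by edgeR), and their log2 fold changes were -0.98, -0.88 and -0.53. The ratio of Nqo1 to Hmox1 counts was 7.09, 6.89 and 6.84 in C6 control replicates 1, 2 and 3 and 0.818, 0.796 and 0.787 in C6-AQP1 replicates 1, 2 and 3. The C6-AQP1 ratio was 0.115 times that of the control, so these textbook NRF2 targets differed in opposite directions, and each group kept to a narrow range.

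**Figure D3:**
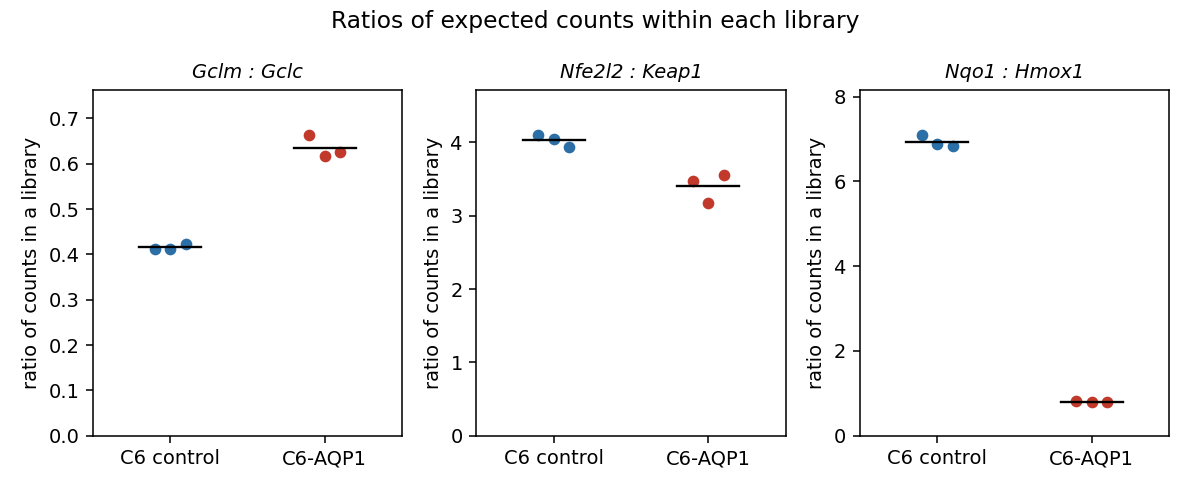
Ratios of expected counts within each library for Gclm to Gclc, Nfe2l2 to Keap1 and Nqo1 to Hmox1, with points for libraries and black bars for the mean of 3, on axes that start at 0. The Gclm to Gclc ratio is higher and the other ratios are lower in all C6-AQP1 libraries.

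Enzymes that make NADPH, the reductant of Nqo1, Txnrd1 and glutathione reductase, gave 3 rises, 3 falls and 1 gene that did not pass among 7, with a median log2 fold change of -0.06 (-0.02 without C6-AQP1 replicate 3). Me1, malic enzyme and a known NRF2 target, rose from 141 ± 1.72 to 288 ± 3.18 CPM (SD, n = 3; log2 fold change 1.03, adjusted p = 2.0e-20 by edgeR). H6pd, which makes NADPH in the endoplasmic reticulum, rose with 0.35. Pgls and Taldo1 of the pentose phosphate pathway fell, with -0.70 and -0.62 (adjusted p = 2.8e-14 and 6.1e-17 by edgeR). Tkt had -0.09, which did not pass when libraries were scaled by their totals alone (-0.04, adjusted p = 0.071 by edgeR). Idh1 had -0.06 and did not pass (adjusted p = 0.0753 by edgeR), although it did without C6-AQP1 replicate 2 (-0.08, adjusted p = 0.019).

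The other aldehyde dehydrogenases measured differed by far less than Aldh3a1. Of 11 listed genes for 10 symbols, 6 rose, 4 fell and 1 did not pass, none was a DEG, and log2 fold changes lay between -0.87 and 0.80 with a median of 0.25. The entry that did not pass was the second entry of the symbol listed more than once. It had no counts in some libraries of both groups, so it is not a separate well-measured enzyme. Aldh3a2, the nearest relative of Aldh3a1, fell from 86.5 ± 0.382 to 68.0 ± 1.87 CPM (SD, n = 3; log2 fold change -0.35, adjusted p = 7.9e-10 by edgeR), and Aldh3b1 fell with -0.33. Aldh16a1 had -0.87. The mitochondrial enzymes Aldh2, Aldh5a1 and Aldh6a1, for acetaldehyde, succinic semialdehyde and methylmalonate semialdehyde, rose with 0.80, 0.77 and 0.44 (adjusted p = 7.8e-17, 1.9e-11 and 1.5e-11 by edgeR).

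Selenoproteins other than the glutathione peroxidases and thioredoxin reductases, with the genes that insert selenocysteine, gave 9 falls, 3 rises and 3 genes that did not pass among 15, with a median log2 fold change of -0.22. The number of rises was 5 when libraries were scaled by their totals alone. Sepw1, selenoprotein W, fell from 49.9 ± 0.323 to 13.2 ± 0.620 CPM (SD, n = 3; log2 fold change -1.92, adjusted p = 1.8e-19 by edgeR), and was the only DEG of the list. The selenoprotein genes Selm and Selk fell with -0.70 and -0.51. Sepsecs, the last enzyme of selenocysteine synthesis, rose from 24.9 ± 0.381 to 38.7 ± 0.870 CPM (adjusted p = 6.6e-12 by edgeR), and Pstk, the kinase before it, and Selo, a mitochondrial selenoprotein, had 0.17 and 0.27.

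**Figure D4:**
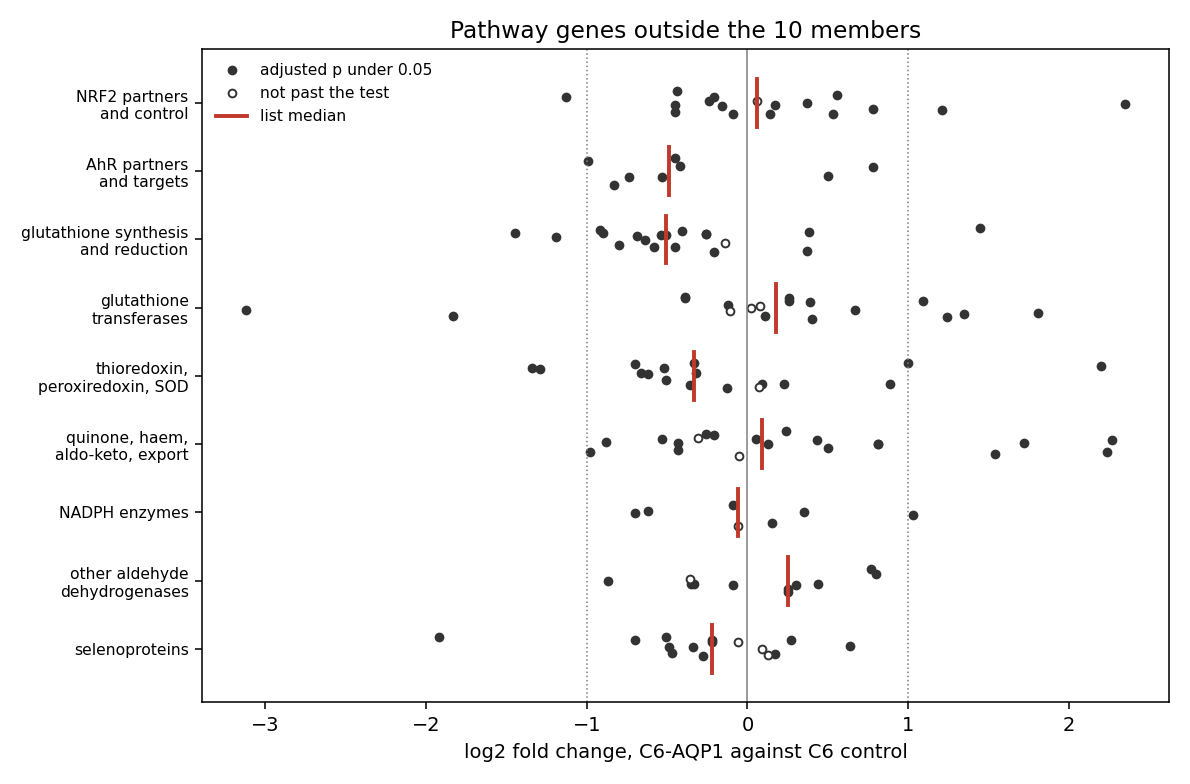
Log2 fold changes between C6-AQP1 and C6 control of the genes in 9 pathway lists, without the 10 members. Filled points passed an adjusted p of 0.05 by edgeR, open points did not, red bars are list medians and dotted lines mark the fold change of DEGs. Medians lie between -0.51 for glutathione synthesis and reduction and 0.25 for the other aldehyde dehydrogenases.

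Over the 9 lists together, 132 genes were measured for 169 symbols, of which 51 rose, 68 fell and 13 did not pass. DEGs made up 10.6% upwards and 6.06% downwards, beside 9.74% and 4.35% of all genes. The median log2 fold change was -0.13. The lists hold enzymes and partners that many other factors also control, so they are no readout of NRF2 or AhR alone.

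Library totals lay between 19054244 and 52725870 counts, lowest in replicate 1 of both groups. Glial markers were well represented, 7 of 8 listed and all higher in C6-AQP1 cells, with a sum between 3963 and 4042 CPM in C6 control libraries and between 6077 and 6282 CPM in C6-AQP1 libraries. Of markers of other cell types, 1 of 7 for microglia and macrophages, 2 of 6 for endothelium, 4 of 7 for neurons and 4 of 5 for mature oligodendrocytes were listed, and the others, Ptprc, Aif1, Pecam1, Cdh5 and Rbfox3 among them, were not analysed here. Their sums were between 2.84 and 3.07 CPM in C6 control libraries and between 6.56 and 7.09 CPM in C6-AQP1 libraries for microglia and macrophages, between 79.2 and 82.4 CPM in C6 control libraries and between 42.2 and 46.4 CPM in C6-AQP1 libraries for endothelium, where Flt1 fell and Tek rose (log2 fold changes -1.13 and 1.66), between 121 and 124 CPM in C6 control libraries and between 308 and 315 CPM in C6-AQP1 libraries for neurons and between 616 and 619 CPM in C6 control libraries and between 1159.6 and 1168 CPM in C6-AQP1 libraries for oligodendrocytes, with 3 of 4 listed genes rising in each of the latter lists. None of the listed markers was at 0 in a whole group, and the part of these shifts in the results above was not tested. In bulk RNA, fewer cells that express a gene and less of its RNA per cell cannot be told apart.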

How the data were processed

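Gene expression was measured by RNA-seq of amplified cDNA in 3 libraries of C6-AQP1 and 3 of C6 control cells. Per the methods and the processing notes of the submitters, Trimmomatic (0.36) trimmed the reads, STAR (2.5.1b) aligned them to rn6 and RSEM (1.2.29) estimated counts, with an annotation not given in the sources used here. Expected counts were deposited by the authors, which are not normalized, for 12121 genes left by their TPM filter. RSEM spreads reads over near-identical copies, so genes with processed pseudogenes (Txn1, Gpx1, Hsp90ab1) are less certain.

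Expected counts were rounded, scaled by TMM and compared by the quasi-likelihood test (robust, no covariate) of edgeR 4.0.16 under R 4.3.3, with Benjamini-Hochberg adjustment over all 12121 genes. The standard error came from the log2 fold change and the test statistic. The common coefficient of biological variation was 2.97%. DESeq2 1.42.0 and limma 3.58.1 (voom) were alternatives. The edgeR fit with TMM, with and without a term for replicate number, DESeq2 and voom were run on simulated data. The other scalings, the filter on low counts and the fits without a library were not. Far fewer genes were changed in the simulation than were called here, so it does not test the scaling of these data. Counts of replicates differed by more than sampling noise (chi-square per degree of freedom 2.15 to 4.29), so each library was counted separately.

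The members and lists were chosen with earlier results of these data known. The text names all members, every gene of the NRF2 and AhR partner lists and of lists under 10 genes, and in other lists up to 3 rises and 3 falls that have at least 50 counts in each library of the group with more. Hmox1 is an exception, and some genes of these lists are counted but not reported here. Transcript lengths were not used, so levels of different genes were not compared. Promoters are RefSeq sequences of GRCr8, another build than the files use, matched by symbol.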

Additional observations from a re-analysis of the deposited data

How the results depend on the processing

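No member and none of the 69 pathway list genes run one by one, Hmox1 included, changed direction under any of the 14 alternatives run (DESeq2, limma-voom, other scalings, a filter on low counts, libraries left out and a replicate block). In the alternatives that tested all 12121 genes, 4703 to 5363 were called higher and 4540 to 4988 lower, and DEGs numbered 1160 to 1294 higher and 446 to 583 lower. The filter on low counts tested 11843 genes and gave 1155 DEGs higher and 511 lower. Scaling by upper quartiles or by library totals alone shifted the median of all genes by 0.04 and 0.05, and list medians moved with it. With upper quartiles they were 0.09 for NRF2 partners, -0.46 for AhR partners, 0.22 for glutathione transferases, -0.30 for the thioredoxin group, 0.12 for quinone and haem genes, -0.02 for NADPH enzymes, 0.28 for aldehyde dehydrogenases and -0.19 for selenoproteins. With library totals they were 0.11, -0.44, 0.24, -0.28, 0.14, 0.00, 0.30 and -0.17 in that order, and -0.46 for glutathione synthesis, and 5 selenoprotein genes rose. Without the shallower library of both groups the quinone and haem median was 0.07. Leaving out 1 library at a time gave medians of 0.02 to 0.11 for NRF2 partners, -0.54 to -0.45 for glutathione synthesis, 0.15 to 0.21 for transferases, 0.08 to 0.11 for quinone and haem genes, -0.08 to -0.02 for NADPH enzymes, 0.24 to 0.26 for aldehyde dehydrogenases and -0.26 to -0.21 for selenoproteins. The cause of these shifts was not tested.

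Replicate numbers are shared by the groups, but deviations from the group means correlated at 0.126, -0.0124 and 0.0651 for same-numbered libraries and not every library correlated best with its own number, so the numbers were not taken as pairs. With a replicate block, 5006 genes were higher and 4976 lower, and Idh1 passed (-0.06, adjusted p = 0.045 by edgeR). Depth limits Aldh3a1 and Gpx3, whose log2 fold changes ranged from -4.90 to -4.39 and from -3.81 to -3.33.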
